A study of Mus musculus with 9 samples.

Results

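Retinal cells that were picked as ganglion cells after receiving Olig3 were set directly against cells picked in the same way after receiving Olig2, over all genes of the deposited count table. The comparison used 6 of the 9 libraries of the series, the 3 labelled Olig3 and the 3 labelled Olig2, chosen by their labels alone. The 3 libraries of a control group that received a virus for green fluorescent protein (GFP) took no part in the test and are given beside it as levels. All 6 libraries came from retina of adult male wild-type (WT) mice whose optic nerve had been crushed 14 days earlier. Each eye had received 1.5 µL of adeno-associated virus (AAV2) in the vitreous, AAV-Olig2 in one group and AAV-Olig3 in the other, for 14 days. Cells were captured on magnetic beads carrying an antibody against CD90.2, the surface protein that Thy1 encodes, and GFP-positive cells were then picked by hand. A library held few cells, 10 to 15 by one statement of the labels and 15 to 20 by another. The complementary DNA was amplified over 20 cycles, and molecular identifiers are not mentioned. The promoter of the viruses, how cells with an Olig virus came to carry GFP, and whether libraries of a group came from separate mice are not stated in the labels. A p-value here thus weighs a difference only against the variation among these few libraries, which could be technical. The series title names the virus Olig1/2, and the sample labels, Olig2 and Olig3, are followed.

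Olig2 and Olig3 are transcription factors with a basic helix-loop-helix domain, which bind E-box sequences in DNA. Olig2 is known for specifying motor neurons and oligodendrocytes, and Olig3 for specifying dorsal progenitors of the spinal cord and hindbrain. Ganglion cells carry visual signals from the eye to the brain, and most of them die in the weeks after their axons are crushed. The injured retina also draws in immune cells. Interferons switch on the genes for antigen presentation, among them the major histocompatibility complex (MHC), and a family of guanosine triphosphatases (GTPases) that defend cells against intracellular microbes.

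The 6 libraries held 5355691 to 6774914 counts. Thus 3 counts, the upper limit for a gene at 0 counts, correspond to 0.443 to 0.560 CPM before the scaling described next. CPM is a gene's count relative to the total of its library, here also scaled by the trimmed mean of M values (TMM), and takes no account of gene length. Intervals and limits here cover counting error only. Genes with at least 10 counts numbered 14872, 14352 and 14864 in the Olig2 libraries and 12273, 13558 and 11919 in the Olig3 libraries, so every Olig3 library lay below every Olig2 library. The mean difference was -2113 genes (two-sided exact permutation p = 0.1, the smallest that 3 against 3 libraries allow). The libraries did not fall into their groups by overall resemblance. Log2 CPM correlated over genes at 0.874 to 0.932 among Olig2 libraries and at 0.685 to 0.784 among Olig3 libraries, while Olig3 library 2 correlated at 0.922 with Olig2 library 2 and at 0.916 with Olig2 library 3. The same 3 libraries were rich in Malat1, a nuclear noncoding RNA, at 6.15 to 11.7% of their counts against 2.65 to 3.12% in the other 3. Malat1 overlaps Gm37376 on the opposite strand, and these counts cannot be told apart. Olig3 libraries 1 and 3 stood apart, with the fewest genes read. The labels name no batch. The defining markers of ganglion cells were low in all 6 libraries, with Rbpms at 0 to 72 counts, while rod genes took 7.44 to 18.1% of the counts, so the groups are called by the virus in their labels. Results are therefore also given within the 3 libraries rich in Malat1 and within the 3 poor in it.

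The test of the labels came first: Olig2 and Olig3 were each highest in the group that had received them, and neither difference passed in edgeR. Olig2 (chr16 91225457 to 91228677) lay at 16.1, 22.98 and 3.73 CPM in the Olig2 libraries and at 0.877, 0.990 and 0 CPM in the Olig3 libraries. All 3 Olig2 libraries were above all 3 Olig3 libraries, with the third of them lowest. The log2 change, Olig3 minus Olig2, was -4.49 (standard error, SE, 1.43, edgeR quasi-likelihood test with Benjamini-Hochberg adjustment, adjusted p = 0.989). Olig3 (chr10 19356533 to 19358604) lay at 0, 1.18 and 1.24 CPM in the Olig2 libraries and at 25.1, 27.95 and 86.9 CPM in the Olig3 libraries. The ratio of means was 57.6-fold in favour of the Olig3 group (log2 change 5.89, SE 1.07, edgeR adjusted p = 0.311), and its groups did not overlap. DESeq2 called both genes, with adjusted p = 0.0455 for Olig2 and 1.27e-07 for Olig3. Reads from the virus and from the cell's own gene cannot be told apart in these counts. Olig1, a further member of the Olig family, had at most 1 count in any of the 6 libraries and was not tested.

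Across all genes the direct comparison gave few calls. Of 14169 genes tested, 2 passed an adjusted p of 0.05 in edgeR, or 0.0141%, and both were lower in the Olig3 libraries. No gene passed in the other direction. At an unadjusted p below 0.05 there were 558 genes (3.94%), with 295 higher in Olig3 (2.08% of those tested) and 263 lower (1.86%). Counted without a test, 673 genes (4.75%) had every Olig3 library above every Olig2 library and 1166 genes (8.23%) had every Olig3 library below. The number of calls depended on the tool. DESeq2 called 73 genes, 9 higher and 64 lower, while limma-voom, with or without sample weights, called 1, H2-D1, lower in Olig3. The calls of DESeq2 are given for each gene list beside those of edgeR, against the 64 lower and 9 higher over all 14169 genes. The common dispersion between libraries of a group was 0.500. The log2 change of the median gene was -0.02. Upper quartile scaling moved it to -0.11 and limma-voom to -0.21, and upper quartile scaling moved the share of higher genes among those at an unadjusted p below 0.05 from 52.9 to 40.7%. A gene read in only 1 of the groups entered the test through that group, so counts over tested members of a gene list are a description. They are to be read against the shares over all genes, which were 1.86% lower and 2.08% higher at an unadjusted p below 0.05 and 8.23% below and 4.75% above without overlap.

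**Figure D1:**
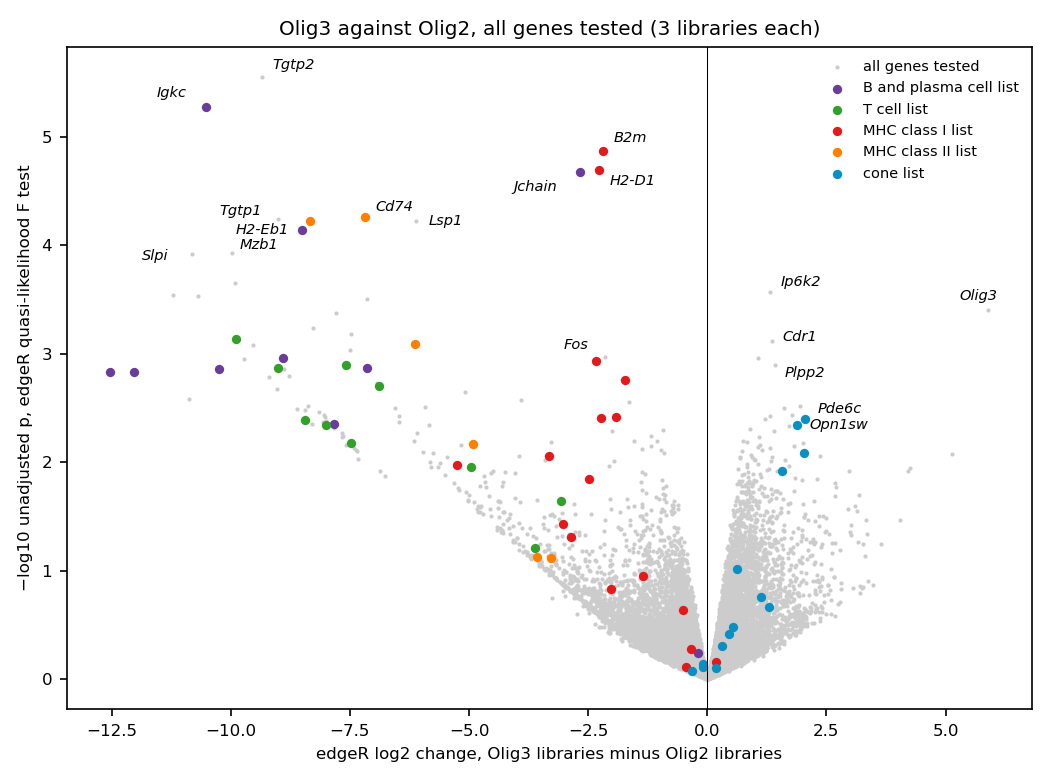
Each point is 1 of 14169 genes tested. The x axis is the edgeR log2 change, Olig3 minus Olig2 libraries, and the y axis is the negative log10 of the unadjusted p. Members of the B and plasma cell, T cell and MHC lists lie on the left, lower in Olig3, and several cone genes on the right, but only Tgtp2 and Igkc passed adjustment over all genes.

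Both genes that passed belong to the immune system. Tgtp2 (chr11 49057194 to 49064206) encodes an interferon-induced GTPase of the immunity-related family. It lay at 75.5, 44.5 and 32.01 CPM in the Olig2 libraries and at 0.146, 0 and 0 CPM in the Olig3 libraries, with 2.55, 7.36 and 15.5 CPM in the GFP libraries. The Olig3 libraries held 1 count of it in all. The ratio of pooled counts, Olig2 over Olig3, was 946 with a 95% counting interval of 169 to 37418, and the fitted log2 change was -9.34 (SE 0.902, edgeR adjusted p = 0.0377). Its near-identical neighbour Tgtp1 (chr11 48985327 to 48994172) shares sequence with it, so how reads were divided between them is uncertain. Tgtp1 itself lay at 83.7, 30.3 and 12.6 CPM with Olig2 and 0, 0.247 and 0 CPM with Olig3 (edgeR adjusted p = 0.094). Igkc (chr6 70726435 to 70726966), the constant region of the antibody kappa light chain, lay at 7518, 2621 and 3408 CPM with Olig2 and at 5.11, 4.21 and 0 CPM with Olig3. The GFP libraries lay at 4.35, 18.3 and 2.29 CPM, below every Olig2 library as well. Its mean was 1454-fold lower in Olig3 (log2 change -10.51, SE 1.10, edgeR adjusted p = 0.0377). Both calls held when Olig2 library 3 or Olig3 library 3 was left out, and both were lost when any of the other 4 libraries was, with adjusted p up to 0.291 for Tgtp2 and 0.276 for Igkc. Limma-voom called neither. In a pick of this kind, fewer cells of a type and less RNA per cell cannot be told apart.

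Antibody genes were read at high levels in every Olig2 library and at low levels in the Olig3 and GFP libraries. The 16 genes of the B and plasma cell list summed to 23544, 5372 and 9005 CPM in the Olig2 libraries and 227, 136 and 147 CPM in the Olig3 libraries, a 74.4-fold gap in the mean (two-sided exact permutation p = 0.1). The GFP libraries, at 133, 254 and 151 CPM, lay near the Olig3 libraries. Of the 16, genes with at least 10 counts numbered 12, 13 and 12 with Olig2, 4, 4 and 2 with Olig3 and 8, 8 and 5 with GFP. Tested members of the list thus entered the test mostly through the Olig2 group, which largely fixed their direction. Of its 10 members that could be tested, 1 passed adjustment (Igkc) and 9 had an unadjusted p below 0.05, all lower in Olig3, against 1.86% of all genes. DESeq2 called 6 of them, all lower, against 64 lower among all 14169 genes. The median log2 change was -8.71, or -7.83 with genes absent from the Olig3 libraries set to the bound that 3 counts over the group give. Jchain (chr5 88519809 to 88527891), which joins antibody units into multimers, lay at 283, 216 and 131 CPM with Olig2 and 40.04, 28.9 and 28.8 CPM with Olig3, 6.45-fold lower in Olig3 (log2 change -2.67, SE 0.330, edgeR adjusted p = 0.0597). It was called when Olig2 library 3, the lowest of its group, was left out (edgeR adjusted p = 0.0436), which favours a call. The Olig3 libraries nevertheless lay above the GFP libraries, at 7.05, 23.6 and 13.2 CPM. Mzb1, a chaperone of antibody assembly in plasma cells, lay at 50.98, 25.1 and 14.4 CPM with Olig2 and had 1 count in the Olig3 libraries together (edgeR adjusted p = 0.103). Cd79a, part of the B cell receptor, had 70, 36 and 73 counts with Olig2 and 0 in all Olig3 and all GFP libraries, and with 3 counts over the Olig3 group taken as the floor it was at least 62.7-fold lower there (edgeR adjusted p = 0.527). Ighm, the heavy chain of naive B cells, lay at 67.97, 5.21 and 20.1 CPM with Olig2 and 0, 0.742 and 0 CPM with Olig3.

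The antibody genes that were read differed within the Olig2 group. An antibody chain combines 1 variable segment with 1 constant region, and the constant region of the heavy chain sets its class, and all cells of 1 B cell clone carry the same variable segments. Ighg1, the constant region of class IgG1, lay at 15384, 18.01 and 5256 CPM in the Olig2 libraries. Libraries 1 and 3 were high and library 2 was low, and Ighg1 took 99.5% (95% interval 99.4 to 99.5%) of the counts of heavy constant genes in library 1 and 98.9% (95% interval 98.7 to 98.97%) in library 3. In library 2 the largest share went to Ighg2c, of class IgG2c, with 57.6% (95% interval 56.6 to 58.6%), and a further 41.1% went to Igha, of class IgA. The variable segments divided the libraries in the same way. Igkv14-111 (chr6 68256389 to 68256869) took 99.9% (95% interval 99.7 to 99.960%) of 4037 kappa variable counts in library 1, 99.6% (95% interval 99.3 to 99.8%) of 2195 in library 3 and 1.77% of 959 in library 2. Among heavy variable segments, Ighv9-3 (chr12 114140692 to 114141122) took 99.9% (95% interval 99.4 to 99.997%) of 974 counts in library 1, 99.1% (95% interval 97.8 to 99.7%) of 527 in library 3 and 1.32% of 151 in library 2. Library 2 was led by Igkv15-103 and Igkv6-14, with 48.5 and 30.97% of its kappa variable counts, and by Ighv13-2 with 55.6% of the heavy ones. Olig2 libraries 1 and 3 thus shared 1 light and 1 heavy variable segment almost exclusively, among 160 kappa and 183 heavy variable genes in the table. Whether libraries 1 and 3 came from separate mice is not stated in the labels, so they may not be independent. In the Olig3 libraries Igkv14-111 had 2, 1 and 0 counts and Ighv9-3 had none. Related variable segments are alike in sequence, so a count assigned to a single segment is uncertain. Without Olig2 library 2, where both were nearly absent, edgeR called 2 genes, Igkv14-111 and Ighv9-3 (adjusted p = 0.000764 and 0.0394). Leaving out that library favours such a call, so it is no evidence of a difference between the factors. The segments were singled out after their values were seen.

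**Figure D2:**
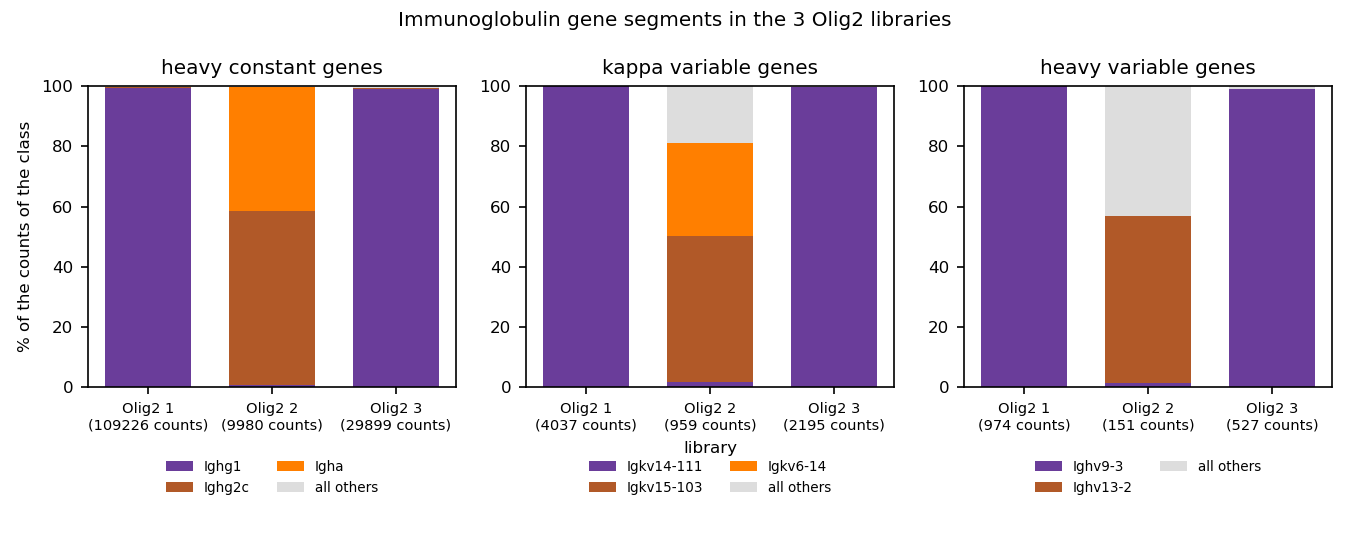
Bars give the share of counts (percent, y axis) within heavy constant, kappa variable and heavy variable genes in Olig2 libraries 1, 2 and 3 (x axis), with the counts of the class under each bar. Ighg1, Igkv14-111 and Ighv9-3 fill nearly the whole bar in libraries 1 and 3 and are nearly absent from library 2.

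Genes of MHC class I, which displays peptides from inside a cell to killer T cells, were lower as a group in the Olig3 libraries than in the Olig2 and GFP libraries, with no single member past the test. All 17 genes of the list were tested. Their summed level was 2425, 2220.2 and 2751 CPM with Olig2 and 694, 622 and 552 CPM with Olig3, and the GFP libraries, at 2180.1, 1746 and 2264 CPM, lay near the Olig2 libraries (two-sided exact permutation p = 0.1 between the factors). No member passed adjustment in edgeR, and DESeq2 called 6, all lower, against 64 lower among all 14169 genes. At an unadjusted p below 0.05, 11 of 17 were lower in Olig3 (1.86% of all genes). In 13 of 17 all Olig3 libraries lay below all Olig2 libraries, against 8.23% of all genes. The median log2 change was -2.19. B2m (chr2 122147686 to 122153083), the light chain shared by all class I molecules, lay at 242, 150.2 and 208 CPM with Olig2, 39.9, 49.2 and 40.9 CPM with Olig3 and 115, 69.7 and 131 CPM with GFP. It was 4.62-fold lower in Olig3 than in Olig2 (log2 change -2.19, SE 0.256, edgeR adjusted p = 0.0597). The gap between the groups was wider than the range within either. H2-D1 (chr17 35262730 to 35267499), a class I heavy chain, lay at 995, 1113 and 1503 CPM with Olig2, 178, 278 and 281 CPM with Olig3 and 1046, 887 and 1097 CPM with GFP (4.89-fold lower in Olig3, log2 change -2.28, SE 0.280, edgeR adjusted p = 0.0597). DESeq2, limma-voom and the edgeR fit over all 9 libraries called H2-D1, with adjusted p = 9.61e-15, 0.0146 and 0.0132. H2-K1, the other classical heavy chain, lay at 579.6, 369 and 468 CPM with Olig2 and 235, 88.3 and 101 CPM with Olig3 (edgeR adjusted p = 0.592). Class I heavy chains are alike in sequence, so reads may have moved between them. Genes of peptide supply were also lower. Psmb8 and Psmb9, immunoproteasome subunits that cut the peptides, had log2 changes of -3.33 and -2.24, and Tap1, the peptide transporter, one of -3.03. Psmb8 lay at 95.9, 85.8 and 93.7 CPM with Olig2 and 0.146, 20.8 and 6.99 CPM with Olig3. Nlrc5, the transactivator of class I genes, lay at 22.8, 18.01 and 15.8 CPM and 3.95, 3.71 and 0 CPM.

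Class II genes, whose products display engulfed antigen and are made mainly by dendritic cells, macrophages and B cells, were all but missing from the Olig3 libraries. The 10 genes summed to 259.7, 1363 and 1292 CPM with Olig2, 27.6, 20.04 and 0.146 CPM with Olig3 and 74.4, 1353 and 673 CPM with GFP. Genes of the list with at least 10 counts numbered 9, 9 and 9 of 10 with Olig2 and 3, 3 and 0 with Olig3. Tested members thus entered the test mostly through the Olig2 group, which largely fixed their direction. None of the 6 members tested passed adjustment in edgeR, and 4 had an unadjusted p below 0.05 (1.86% of all genes, lower). DESeq2 called 2, Cd74 and H2-Eb1, against 64 lower among all 14169 genes. In all 6 the Olig3 libraries lay below the Olig2 libraries (8.23% of all genes). Cd74 (chr18 60803848 to 60812652), the invariant chain that guides class II molecules, lay at 119.8, 457 and 505 CPM with Olig2 and 4.97, 2.23 and 0 CPM with Olig3, 150.3-fold lower in Olig3 (edgeR adjusted p = 0.094). In the GFP libraries it lay at 25.5, 328 and 190.03 CPM. The beta chain H2-Eb1 lay at 18.7, 83.9 and 97.1 CPM with Olig2 and 0, 0.742 and 0 CPM with Olig3 (edgeR adjusted p = 0.094). H2-Ab1, another beta chain, lay at 60.3, 595 and 476 CPM and 11.7, 3.96 and 0 CPM. Within the Olig2 group, library 1 was the lowest for these genes, the reverse of its place for Ighg1. Ciita, the transactivator of class II genes, had 10, 36 and 21 counts with Olig2 and 0, 1 and 0 with Olig3 and was below the filter of the test.

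**Figure D3:**
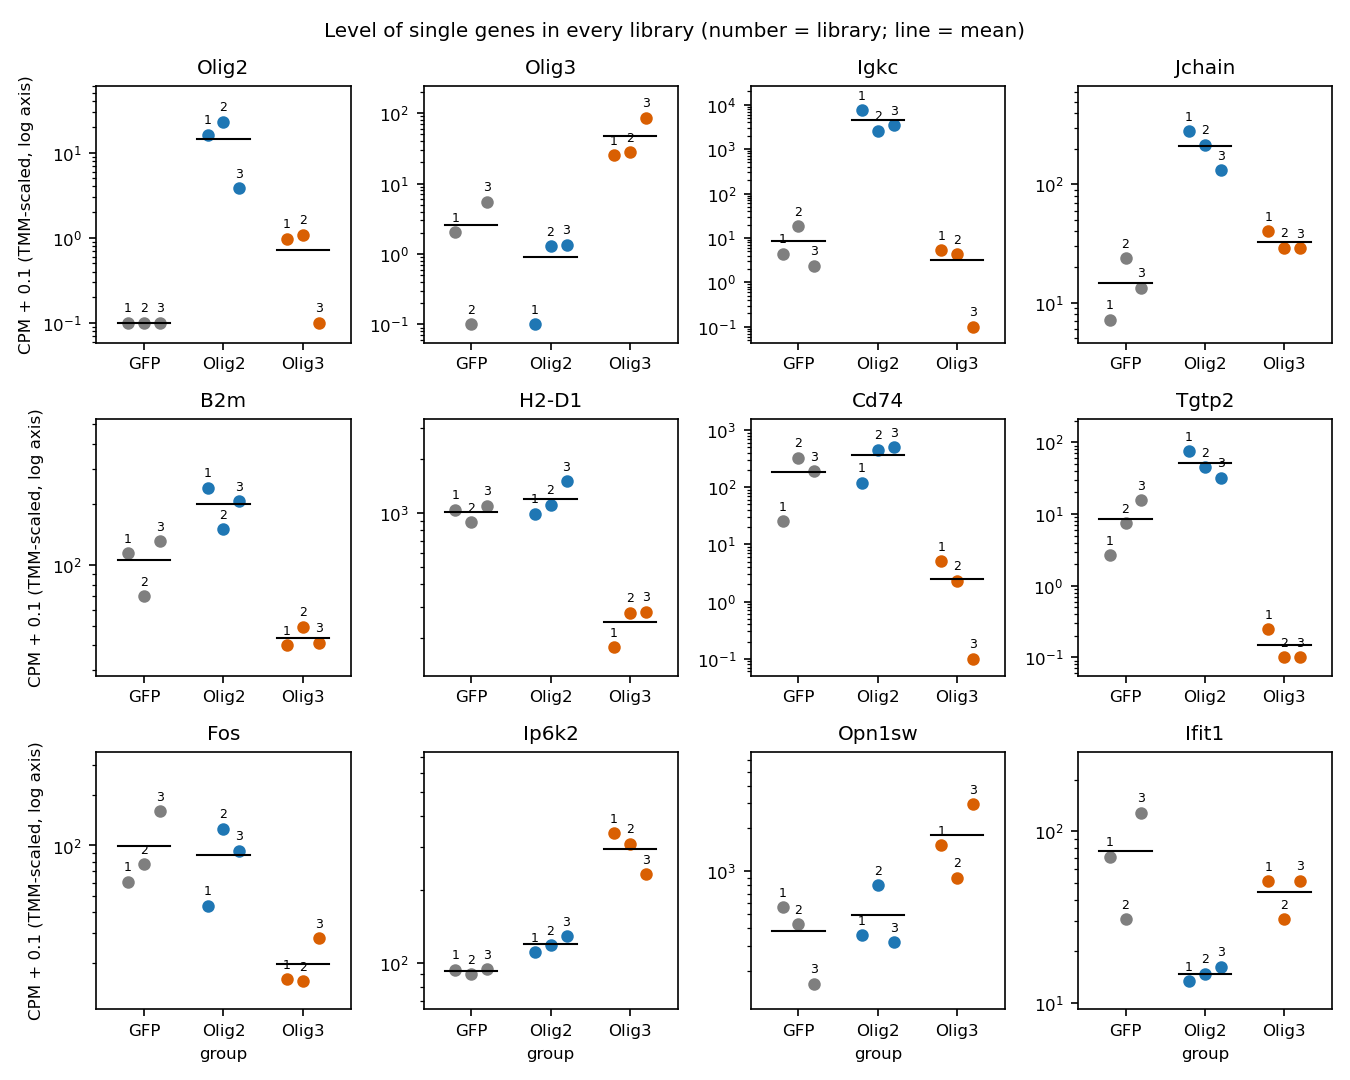
Each panel gives the level of 1 gene (TMM-scaled CPM plus 0.1, log axis) in every GFP, Olig2 and Olig3 library (x axis). Numbers name the libraries and lines mark group means. B2m, H2-D1, Tgtp2, Cd74 and Fos are lower in all 3 Olig3 libraries than in all GFP and Olig2 libraries, and Igkc and Jchain are high in the Olig2 libraries alone.

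The other members of the family of Tgtp2 that could be tested also lay lower in the Olig3 than in the Olig2 libraries. Immunity-related GTPases are induced by interferons, above all interferon gamma, and attack the vacuoles of intracellular parasites. Their promoters are shown because 6 of the 10 family members with a promoter in the RefSeq table (GRCm38.p6) hold an interferon-stimulated response element (GAAA, any 2 bases, GAAA) and a gamma-activated site (TTCNNNGAA) in the 250 bases before the start, against 0.329% of 32817 mouse promoters. Either strand was searched. Alone, the first motif is in 2.97% and the second in 7.01% of all promoters. Capitals mark the matches.
Tgtp2 (chr11:49064234-49064313, minus strand): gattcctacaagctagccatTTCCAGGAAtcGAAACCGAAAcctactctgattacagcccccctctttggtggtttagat
Tgtp1 (chr11:48992275-48992354, minus strand): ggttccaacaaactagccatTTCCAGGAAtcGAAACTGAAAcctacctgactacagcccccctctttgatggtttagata
Igtp (chr11:58199491-58199555, plus strand): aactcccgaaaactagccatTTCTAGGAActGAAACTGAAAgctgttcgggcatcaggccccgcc
Irgm2 (chr11:58214882-58214961, plus strand): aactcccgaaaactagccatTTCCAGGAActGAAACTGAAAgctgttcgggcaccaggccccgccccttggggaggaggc
In these 4 promoters the gamma-activated site ended 2 bases before the response element. The 4 windows are alike in sequence around the motifs, so their matches are not independent of each other. B2m, also lower in Olig3, held the response element without the second motif.
B2m (chr2:122147528-122147607, plus strand): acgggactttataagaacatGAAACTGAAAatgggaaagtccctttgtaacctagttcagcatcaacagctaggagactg
Ifit1, the antiviral gene that lay in the opposite direction, held the response element at 2 places on the other strand and no gamma-activated site.
Ifit1 (chr19:34640765-34640844, plus strand): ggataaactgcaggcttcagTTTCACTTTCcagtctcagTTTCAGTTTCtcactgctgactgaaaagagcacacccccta
A match is a likeness of letters and was not tested for binding. H2-D1, H2-K1, Tap1, Psmb9 and Ifi47, lower in Olig3, hold neither motif in this window. Psmb8, also lower, holds the gamma-activated site alone. Of 15 genes of the MHC class I list with a promoter, 3 held the response element, 2 the gamma-activated site and 0 both.

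The 14 immunity-related GTPase genes in the table, grouped after their values were seen, summed to 524, 348 and 278 CPM with Olig2, 35.9, 39.3 and 39.9 CPM with Olig3 and 441, 230.2 and 593 CPM with GFP. The 3 Olig3 sums were close but differed in makeup, since Igtp alone gave 39.01 of the 39.9 CPM in Olig3 library 3. The lowest of the other 6 libraries, GFP library 2, stood at 230.2 CPM. Genes with at least 10 counts numbered 13, 10 and 11 of 14 with Olig2 and 3, 3 and 1 with Olig3. Tested members thus entered the test mostly through the Olig2 group, which largely fixed their direction. Of 9 tested, 1 passed (Tgtp2), 8 had an unadjusted p below 0.05 (1.86% of all genes, lower), and in all 9 the Olig3 libraries lay below the Olig2 libraries (8.23% of all genes). Irgm1, a regulator of the family whose promoter holds the response element at 2 places, lay at 133, 111 and 103 CPM with Olig2 and 2.19, 20.8 and 0.873 CPM with Olig3 (edgeR adjusted p = 0.78). Ifi47 lay at 65.7, 29.4 and 25.4 CPM and 0, 0.990 and 0 CPM (edgeR adjusted p = 0.263). Igtp, where Olig3 library 3 nearly reached Olig2 library 3, lay at 80.99, 69.7 and 39.8 CPM and 27.2, 6.93 and 39.01 CPM. Iigp1, the best-studied effector, lay at 29.7, 22.98 and 15.6 CPM and 0, 1.24 and 0 CPM. The 11 related guanylate-binding proteins, which act beside them on the same vacuoles, summed to 157, 151 and 152 CPM with Olig2 and 75.8, 28.7 and 0 CPM with Olig3. Gbp2 lay at 50.6, 43.6 and 46.2 CPM with Olig2 and 1.17, 8.16 and 0 CPM with Olig3.

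The wider interferon response was mixed in direction. The interferon response list of 36 genes, which also holds Igtp, Iigp1 and Gbp2, summed to 763, 807 and 662 CPM with Olig2 and 674, 507 and 503 CPM with Olig3. Of 33 tested, none passed in edgeR, DESeq2 called Gbp2 and Iigp1, both lower, 6 were lower and 1 was higher at an unadjusted p below 0.05, and 10 had all Olig3 libraries below and 1 all above the Olig2 libraries, against 8.23 and 4.75% of all genes. The median log2 change was -0.45, with 20 negative and 13 positive. Irf1, a factor that interferon gamma induces, lay at 38.7, 31.3 and 35.4 CPM with Olig2 and 18.3, 3.71 and 10.04 CPM with Olig3. Irf9, the DNA-binding part of the factor that reads type I interferon signals, lay at 75.6, 61.1 and 77.2 CPM with Olig2 and 50.9, 32.4 and 42.6 CPM with Olig3. Ifit1 (chr19 34640871 to 34650009), which binds foreign RNA, was the 1 member higher at an unadjusted p below 0.05, at 13.3, 14.7 and 16.2 CPM with Olig2 and 51.00, 30.7 and 51.5 CPM with Olig3 (3.01-fold, log2 change 1.61, SE 0.403, edgeR adjusted p = 0.833). The Olig2 libraries were the low group for Ifit1, since the GFP libraries lay at 71.1, 30.6 and 128 CPM.

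Other immune cell genes were read in the Olig2 libraries and nearly absent from the Olig3 libraries. The 18 T cell genes summed to 192, 75.3 and 248 CPM with Olig2, 0.731, 9.15 and 10.04 CPM with Olig3 and 4.80, 80.4 and 47.7 CPM with GFP. Members with at least 10 counts numbered 12, 12 and 16 of 18 with Olig2 and 0, 2 and 1 with Olig3. Tested members thus entered the test mostly through the Olig2 group, which largely fixed their direction. Of 10 tested, none passed in edgeR, and DESeq2 called 6, all lower, against 64 lower among all 14169 genes. An unadjusted p below 0.05 was found in 9, and all 10 had the Olig3 libraries below, against 1.86 and 8.23% of all genes. The median log2 change was -7.53, or -5.42 at the bound. The genes of the T cell receptor complex, Cd3d, Cd3e and Cd3g, were at 0 in all Olig3 libraries and had 10 or more counts in every Olig2 library. Cd3g had 130, 19 and 61 counts with Olig2, so it was at least 73.5-fold lower in Olig3 (edgeR adjusted p = 0.534). Nkg7, a granule protein of killer cells, had 309, 20 and 75 counts with Olig2 and was at least 141-fold lower (edgeR adjusted p = 0.468). Il7r, a receptor for a T cell survival factor, lay at 32.4, 2.84 and 8.71 CPM with Olig2 and had 1 count in the Olig3 libraries. Lsp1, an actin-binding protein of leukocytes (chr7 142460809 to 142494867), lay at 80.99, 20.4 and 58.9 CPM with Olig2 and 0.292, 1.73 and 0.437 CPM with Olig3 (edgeR adjusted p = 0.094). Slpi, a protease inhibitor of granulocytes and epithelia, was uneven within Olig2, at 240.4, 186 and 6.40 CPM, and had 1 count in the Olig3 libraries (edgeR adjusted p = 0.142). Without Olig2 library 3, the lowest of its group for Slpi, edgeR called Slpi as lower in Olig3 (adjusted p = 0.00132). Leaving out that library favours the call.

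Genes that were on in every Olig2 library and off in every Olig3 library had no counterpart in the other direction. Of 12662 genes with at least 10 counts in all 3 Olig2 libraries, 35 (0.276%) had 0 counts in all 3 Olig3 libraries. Of 9691 genes with at least 10 counts in all 3 Olig3 libraries, none was at 0 in all Olig2 libraries. Among the 35, 27 were protein-coding and 10 were at 0 in the GFP libraries as well. Ccr7, the receptor that guides dendritic cells and T cells to lymph nodes, led them by mean level, with 591, 24 and 363 counts in the Olig2 libraries and none in the Olig3 or GFP libraries. Ccl22, a chemokine of activated dendritic cells, had 808, 11 and 36 counts, mostly in library 1. Il12b, a subunit of interleukin-12 made by the same cells, lay at 274, 0.237 and 0.889 CPM with Olig2, with nearly all of it in library 1, and was not tested. Cytip and Ms4a4b, both of lymphocytes, had 208, 41 and 135 and 287, 16 and 58 counts with Olig2. The Olig3 libraries had fewer genes read in all, and the part of that in these counts was not tested. With a minimum of 5 or 20 counts in place of 10 the number was 85 or 11, and 0 in the other direction at both.

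Macrophage genes that could be tested overlapped between the groups. The 21 genes of microglia and macrophages summed to 149, 522 and 803 CPM with Olig2 and 131, 510.1 and 205 CPM with Olig3. Of 17 tested, none passed in edgeR or DESeq2. At an unadjusted p below 0.05, 1 was lower (1.86% of all genes). None had groups apart, against 8.23% below and 4.75% above over all genes. Lyz2, lysozyme of myeloid cells, lay at 10.9, 148 and 266 CPM with Olig2 and 6.28, 16.8 and 0 CPM with Olig3. Ptprc, the pan-leukocyte protein CD45, lay at 46.2, 12.3 and 50.5 CPM and 17.5, 2.97 and 0.146 CPM. The lymphocyte genes were lower in the same 3 libraries as the class I genes and the GTPases, and their part in those results was not tested.

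**Figure D4:**
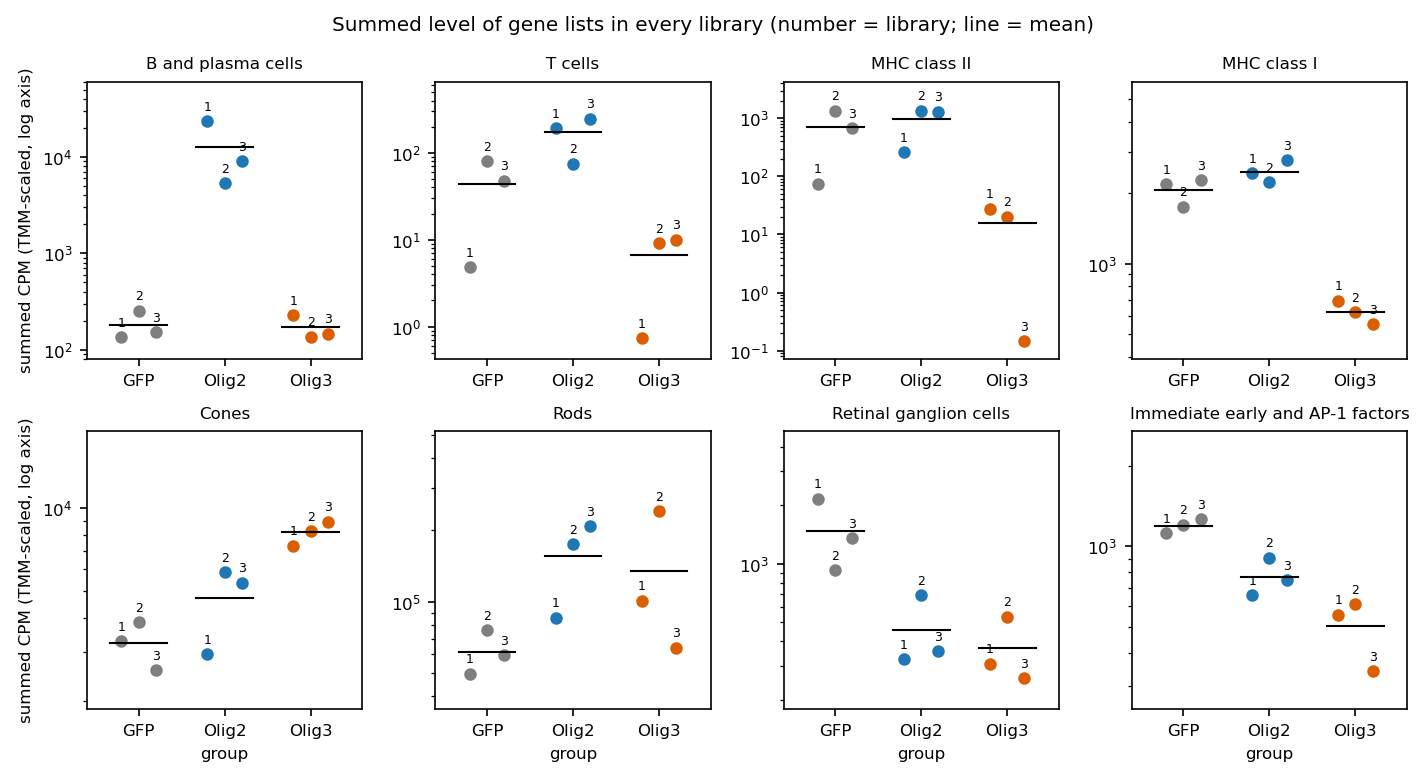
Panels give the summed level (TMM-scaled CPM, log axis) of 8 gene lists in every library (x axis by group), with group means as lines. The 3 Olig3 libraries lie below every Olig2 library for the B and plasma cell, T cell, MHC class I, MHC class II and immediate early lists and above them for cones, while rods and retinal ganglion cells overlap.

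No gene passed in the direction of higher levels in the Olig3 libraries. After Olig3 itself, the genes first by p among those with no overlap between the groups are given here as values. Ip6k2 (chr9 108783796 to 108806337), an inositol phosphate kinase linked to cell death signalling, had the smallest p in this direction, at 110.4, 118 and 129 CPM with Olig2 and 341, 308 and 231 CPM with Olig3, 2.46-fold higher (log2 change 1.31, SE 0.227, edgeR adjusted p = 0.258). The GFP libraries lay at 93.8, 89.9 and 94.3 CPM, close to the Olig2 libraries. DESeq2 called Ip6k2 with an adjusted p of 4.28e-05. Plpp2 (chr10 79526430 to 79533796), a membrane lipid phosphatase, lay at 32.3, 29.4 and 31.5 CPM with Olig2 and 109, 71.7 and 64.04 CPM with Olig3 (log2 change 1.41, edgeR adjusted p = 0.534). Cdr1 (chrX 61184005 to 61185558) lies within Cdr1os on the opposite strand, so their counts cannot be told apart. Together they stood at 55.1, 38.4 and 38.1 CPM for Cdr1 with Olig2 against 129.9, 91.3 and 115 CPM with Olig3, and 104, 83.6 and 76.3 CPM for Cdr1os against 186, 159 and 205 CPM. Mpi, an enzyme of mannose metabolism, lay at 20.96, 13.3 and 10.3 CPM with Olig2 and 59.5, 29.2 and 82.5 CPM with Olig3. Stam, which sorts receptors in endosomes, had log2 change 1.31, the translation initiation subunit Eif3b had 1.21, and the membrane protein Cmtm4 had 1.79. These genes were picked among the 4.75% of all genes with all 3 Olig3 libraries above all 3 Olig2 libraries, so that trait is no result.

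The summed level of cone genes was higher in every Olig3 library than in every Olig2 library, and that of rod genes overlapped between the groups. Cones serve colour and daylight vision and rods dim light, and both are cell types other than the labelled one. The 14 cone genes summed to 2955, 5866 and 5368 CPM with Olig2 and 7309, 8274 and 8943 CPM with Olig3 (two-sided exact permutation p = 0.1), with 3286, 3861 and 2583 CPM in the GFP libraries. None of 14 passed adjustment in edgeR. DESeq2 called Opn1sw and Pde6c, both higher, against 9 higher among all 14169 genes. At an unadjusted p below 0.05, 4 were higher (2.08% of all genes). All Olig3 libraries lay above in 3 (4.75% of all genes). The median log2 change was 0.58, with 11 positive and 3 negative. Opn1sw, the short-wavelength opsin (chr6 29376671 to 29388468), lay at 356, 799 and 320.1 CPM with Olig2 and 1524, 902 and 2953 CPM with Olig3, with no overlap (3.65-fold, log2 change 1.88, SE 0.500, edgeR adjusted p = 0.857). Arr3, cone arrestin, lay at 47.01, 287 and 247 CPM and 679, 497 and 1164 CPM, and Gnat2, the cone transducin, at 83.7, 281 and 242 CPM and 579, 305 and 887 CPM. Pde6c, the cone phosphodiesterase, lay at 30.02, 79.6 and 47.3 CPM and 314, 76.2 and 249 CPM, overlapping through Olig3 library 2. The gap depended on the libraries compared. Within the 3 libraries rich in Malat1 the log2 change was 0.71 for Opn1sw and 0.29 for Pde6c, and within the 3 poor in it 2.65 and 3.23. The 18 rod genes summed to 85603, 173860.00 and 207405 CPM with Olig2 and 101037, 239987 and 63993 CPM with Olig3. No member was called by either tool or had an unadjusted p below 0.05. In 1 of 18, Slc24a1, all Olig3 libraries lay above (4.75% of all genes).

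Among the genes of other retinal cells, no gene passed in edgeR, and single genes are given as values. Of 20 bipolar cell genes tested, none passed in edgeR or DESeq2 and 4 were higher in Olig3 at an unadjusted p below 0.05 (2.08% of all genes). Their log2 changes were 10 positive and 10 negative. All Olig3 libraries lay above in 2 members and below in 2, against 4.75 and 8.23% of all genes. The 4 were Cabp5, Lhx4, Scgn and Grm6. Grm6, the glutamate receptor of ON bipolar cells, lay at 85.4, 53.3 and 51.6 CPM with Olig2 and 154, 88.8 and 96.6 CPM with Olig3. Pcp2, a modulator of G protein signalling in ON bipolar cells, lay in the other direction, at 298, 300.4 and 222 CPM and 203, 208 and 172 CPM. Lhx4, a transcription factor of bipolar cells and cones, lay at 25.3, 22.5 and 22.6 CPM with Olig2 and 46.6, 28.4 and 91.98 CPM with Olig3. Cabp4, a calcium-binding protein of photoreceptor ribbon synapses, lay at 211, 261 and 296 CPM and 446, 379.98 and 339 CPM. Gad1, which makes the transmitter GABA in amacrine cells, lay below in Olig3, at 157, 167 and 187 CPM with Olig2 and 48.4, 92.3 and 104 CPM with Olig3 (log2 change -1.05, edgeR adjusted p = 0.989), while Dab1, of AII amacrine cells, was at 34.97, 35.8 and 19.9 CPM and 63.9, 43.04 and 141 CPM. Calb1, a calcium-binding protein of horizontal cells, overlapped between groups, at 796, 123 and 459.5 CPM and 71.02, 222 and 42.1 CPM. Of 18 Müller glia genes 4 had all Olig3 libraries below, against 8.23% of all genes, and none passed in edgeR. Vim, the 1 that DESeq2 called, an intermediate filament of Müller glia and of many immune cells, lay at 195, 102 and 109.7 CPM with Olig2 and 32.4, 68.3 and 29.8 CPM with Olig3 (log2 change -1.63, SE 0.400, edgeR adjusted p = 0.81). Lens crystallins split the Olig3 group. Cryaa lay at 0.283, 0.711 and 0.356 CPM with Olig2 and 144, 159 and 0 CPM with Olig3, and Crybb2 at 0.708, 0.474 and 0.889 CPM and 83.00, 235 and 0.437 CPM, so that only Olig3 libraries 1 and 2 were high. Both were below the filter of the test. Without Olig3 library 3, in which they were nearly absent, both were called as higher in Olig3 (edgeR adjusted p = 0.000218 and 0.00229). Leaving out that library favours such a call, so it is no evidence of a group difference. In the GFP libraries Cryaa lay at 539, 1371 and 20.9 CPM.

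Markers of the labelled cell type were low in both groups and did not separate them. The 23 retinal ganglion cell genes took 0.0296 to 0.0538% of the counts in the Olig2 libraries and 0.0301 to 0.0405% in the Olig3 libraries, against 7.44 to 18.1% for the 18 rod genes over the 6 libraries. Their summed level was 324, 691 and 356 CPM with Olig2, 306, 536 and 259 CPM with Olig3 and 2159.7, 930.5 and 1352 CPM with GFP. None of 18 tested passed in edgeR or DESeq2, and none had an unadjusted p below 0.05 (1.86% lower and 2.08% higher over all genes). None had groups apart (8.23% below and 4.75% above over all genes). Rbpms, which marks ganglion cells as a class, had 9, 38 and 31 counts with Olig2 and 72, 31 and 0 with Olig3. Thy1, the antigen of the beads, had 35, 92 and 46 counts and 16, 33 and 0. Slc17a6, their glutamate transporter, had 24, 123 and 69 and 54, 109 and 0. Each of the 3 was at 0 in Olig3 library 3. Tubb3, a neuronal tubulin, was read in all 6, at 48.9, 43.6 and 30.8 CPM with Olig2 and 36.7, 25.7 and 34.6 CPM with Olig3. Gap43, a growth cone protein, lay at 20.4, 55.7 and 26.1 CPM and 0.438, 27.2 and 0 CPM, where Olig3 library 2 alone reached the Olig2 range. Stmn2, a tubulin-binding protein of growing axons, lay at 36.2, 54.97 and 15.6 CPM and 1.17, 29.9 and 0.291 CPM.

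Immediate early genes are switched on by neurons and glia within minutes of stimulation or injury, and their summed level was lower in every Olig3 library than in every Olig2 library (two-sided exact permutation p = 0.1). The 17 genes of this list and of the AP-1 family summed to 656, 905 and 747 CPM with Olig2, 555, 608 and 341 CPM with Olig3 and 1122, 1204 and 1263 CPM with GFP. None of 11 tested passed in edgeR, DESeq2 called Fos, 4 were lower at an unadjusted p below 0.05, and in 7 of 11 the Olig3 libraries were all below, against 1.86 and 8.23% of all genes. Fos (chr12 85473890 to 85477273) lay at 43.6, 126 and 93.00 CPM with Olig2, 15.8, 15.3 and 27.8 CPM with Olig3 and 60.6, 76.9 and 159.6 CPM with GFP (4.46-fold lower in Olig3 than in Olig2, log2 change -2.14, SE 0.450, edgeR adjusted p = 0.527). Junb, its partner, lay at 76.9, 117 and 112 CPM and 51.3, 72.2 and 42.4 CPM. Egr1, another early factor, lay at 15.3, 39.8 and 38.2 CPM and 3.51, 13.4 and 0 CPM. Atf3, the injury factor of axotomised neurons, lay at 41.3, 40.8 and 44.8 CPM with Olig2 and 1.75, 28.9 and 28.4 CPM with Olig3. Leukocytes make Fos and Junb too, and the part of the lower leukocyte genes in these values was not tested.

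Genes tied to axon regeneration were mostly at lower values without passing. Of 36 regeneration-associated genes 23 were tested, none passed in edgeR or DESeq2, 2 were lower at an unadjusted p below 0.05 (1.86% of all genes), and 21 of 23 had a negative log2 change, as 7291 of all 14169 genes did, with a median of -0.91. Anxa2, a membrane-binding protein also common in leukocytes and epithelia, lay at 89.8, 29.1 and 38.1 CPM with Olig2 and 0.146, 13.1 and 0.437 CPM with Olig3. Fgf2, a growth factor of stressed retina, lay at 84.7, 41.9 and 86.8 CPM and 40.3, 40.8 and 31.6 CPM. Of 39 axon cytoskeleton genes tested, none passed in edgeR or DESeq2. At an unadjusted p below 0.05, 4 were lower (1.86% of all genes). All Olig3 libraries lay below in 5 (8.23% of all genes) and above in 1 (4.75% of all genes). A positive log2 change was found in 12. Marcks, which links actin to the membrane, lay at 84.4, 82.2 and 108 CPM and 48.1, 42.8 and 13.97 CPM, and Dpysl2, a microtubule assembly factor, at 118, 115 and 185 CPM and 61.1, 76.7 and 83.3 CPM. Of the 12 genes of the injury kinase cascade and of axon death, none passed in edgeR or DESeq2. All Olig3 libraries lay above in 1 (4.75% of all genes) and below in 0 (8.23% of all genes). The 1 was Map2k7, a kinase below the injury sensor, at 17.4, 13.7 and 16.2 CPM and 37.6, 24.5 and 39.2 CPM (edgeR adjusted p = 0.989).

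Genes related to the delivered factors by family or function gave no call other than Olig2 and Olig3 themselves in DESeq2. Bhlhe23, a factor of the same family that is active in rod bipolar cells, lay at 22.8, 21.3 and 17.2 CPM with Olig2 and 31.6, 33.6 and 25.6 CPM with Olig3, with no overlap (log2 change 0.58, edgeR adjusted p = 0.989). Neurod4, a proneural factor, lay at 189.7, 134 and 152 CPM and 348, 170.2 and 436 CPM. Id2, which blocks such factors from binding DNA, lay at 67.7, 19.7 and 32.01 CPM and 24.4, 8.91 and 15.7 CPM, and Hey2, a repressor downstream of Notch, at 16.6, 7.82 and 10.7 CPM and 0, 5.69 and 0 CPM. Of 18 oligodendrocyte lineage genes only 4 were read enough to be tested. None of the 4 had groups apart, against 8.23% below and 4.75% above over all genes. The list summed to 156, 81.7 and 106 CPM with Olig2 and 92.1, 121 and 137 CPM with Olig3. Among 26 regulators of DNA methylation and chromatin, 20 had a positive log2 change, 5 had all Olig3 libraries above (4.75% of all genes), 1 was higher at an unadjusted p below 0.05 (2.08% of all genes), and none passed in edgeR or DESeq2. Dnmt1, the maintenance DNA methyltransferase, lay at 16.99, 23.2 and 20.8 CPM and 38.7, 32.4 and 66.4 CPM. Cytosolic ribosomal protein genes leaned the other way, with 73 of 76 log2 changes negative and a median of -0.45. The median was -0.28 within the libraries rich in Malat1 and -0.14 within those poor in it. At an unadjusted p below 0.05, 1 was lower (1.86% of all genes), and none was called by either tool. In 7 of 76 all Olig3 libraries lay below (8.23% of all genes). Nuclear genes of oxidative phosphorylation had 56 of 71 negative and a median of -0.26. The median was -0.0016 within the libraries rich in Malat1 and -0.13 within those poor in it. None of these 71 had an unadjusted p below 0.05, and in 2 all Olig3 libraries lay below (8.23% of all genes).

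**Figure D5:**
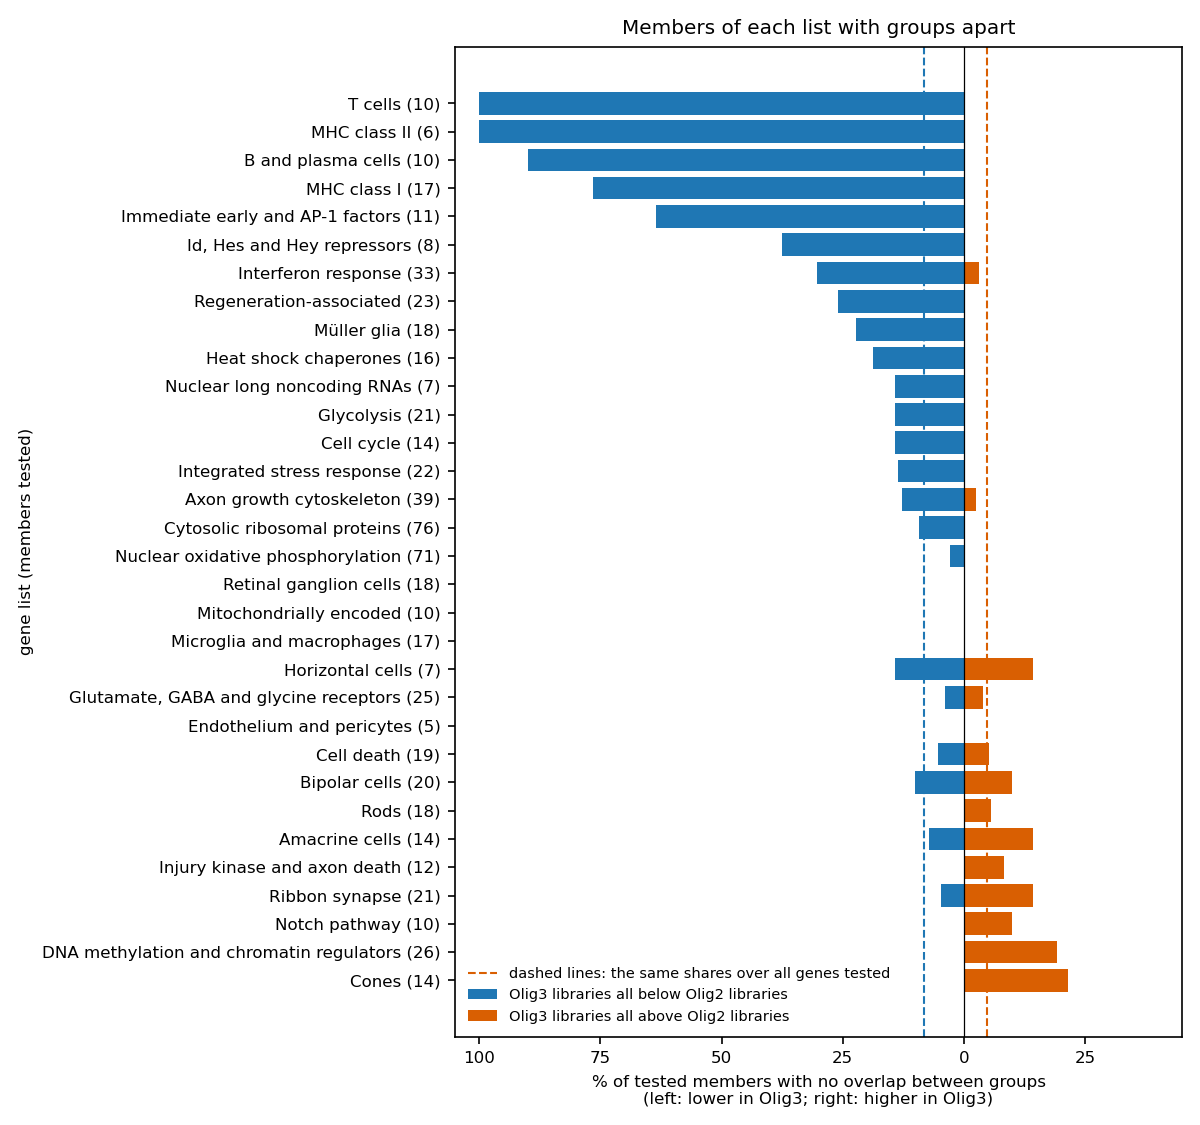
Bars give the share of tested members (percent, x axis) of each gene list with at least 5 tested members (y axis) whose Olig3 libraries all lay below (left) or all above (right) the Olig2 libraries. Dashed lines mark the same shares over all genes tested, 8.23% below and 4.75% above. T cell, MHC class II, B and plasma cell and MHC class I lists reach farthest to the left, and cones reach farthest to the right.

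The size of the differences within the libraries rich in Malat1 and within those poor in it is given as a description. Each set has an arm of 1 library, and for genes whose groups do not overlap the sign within a set is fixed. With Olig3 library 2 against Olig2 libraries 2 and 3, the log2 change was -2.21 for H2-D1, -1.84 for B2m, -10.46 for Tgtp2 and -9.45 for Igkc. With Olig3 libraries 1 and 3 against Olig2 library 1, it was -2.11, -2.59, -9.70 and -11.52. The median of the class I list was -2.08 and -2.11. Ip6k2 had 1.34 and 1.37, and Plpp2 had 1.26 and 1.42. For Fos the values were -2.81 and -1.001, for Vim -0.60 and -2.65, and for the median cone gene 0.28 and 2.11. The split by Malat1 was chosen after values of these libraries were seen.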

How the data were processed

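Poly-A RNA of picked retinal cells was measured in 9 libraries, of which the 3 Olig3 and 3 Olig2 libraries entered the test. The deposited values are whole-number read counts per gene, not normalized. Per the submitters' processing notes the authors used FastQC, HISAT2 and HTSeq with the mouse build mm10; their versions, filters and use of strand were not given in the sources used here, so overlapping genes cannot be separated. Without molecular identifiers the counts are of amplified reads. All 50764 genes of the table matched GENCODE M21, from which positions were taken (1-based), and promoters came from RefSeq GRCm38.p6.

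The test was the quasi-likelihood F test of edgeR 4.0.16 (R 4.3.3) on the 6 libraries, with TMM factors, filterByExpr (14169 of 27564 genes with a count), 4 residual degrees of freedom, Benjamini-Hochberg adjustment over all genes tested and a threshold of 0.05. The fit was also run on simulated counts with known changes, and the outcome is not reported here. Levels are CPM scaled with TMM factors over all 9 libraries. Folds are ratios of mean CPM; against a group at 0 the floor was 3 counts over the group, and with 1 to 3 counts the ratio of pooled counts has a 95% exact interval. Shares carry exact Clopper-Pearson intervals. Summed levels were tested by exact permutation, two-sided, over 43 lists of 832 genes (828 in the table); adjusted over the 43 lists, no sum passed (lowest adjusted p = 0.391).

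Deviations of same-numbered libraries from their group means correlated weakly (r = 0.01, 0.11 and -0.02). This cannot exclude pairing, but these libraries were not treated as pairs. The libraries of a group did not agree within counting noise (chi-square per degree of freedom at least 29.5), and none were merged.

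The genes named are the Olig genes, then per direction the 10 with the smallest p among those past the threshold with no overlap between groups, leaving out predicted and clone symbols, filled up with the next such genes given as values, then members of each list by p and by level; further genes, the segments and the GTPase families were picked once values were known. The members, lists and tests were chosen with earlier results of these data known. Alternatives were other scaling factors, left-out gene classes, DESeq2 1.42.0, limma-voom from limma 3.58.1, unweighted and weighted by sample quality, robust edgeR estimation, other filters and thresholds, all 9 libraries in the fit, a replicate block and leaving out libraries. Some items are not reported here.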

Additional observations from a re-analysis of the deposited data

How the results depend on the processing

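The count of calls moved with most settings, and none of those run gave more genes higher than lower in Olig3. Against 2 calls (0 higher, 2 lower), edgeR gave 4 with upper quartile factors or robust estimation, 5 with a filter of 10 CPM in 3 libraries and 6 with all 9 libraries in the fit, all lower. DESeq2 gave 73 (9 higher, 64 lower), no filter 98 (21 higher, 77 lower), limma-voom with or without sample weights 1, and a threshold of 0.1 gave 9, all lower. The fit with the replicate number as a block, which is not known to mark pairs, gave 9, all lower. Without 1 library the count ran from 0 to 4, with 0 to 2 higher and 0 to 4 lower; it was 0 without Olig2 library 1, Olig3 library 1 or Olig3 library 2, and at an unadjusted p below 0.05 these fits had 353, 679 and 2655 genes, with 188, 345 and 1961 of them lower. Without the 2 Olig3 libraries with the fewest genes it was 8 (4 higher, 4 lower), and with only the 3 libraries richest in Malat1, a setting added after seeing the data, 152 (21 higher, 131 lower). RLE or TMMwsp factors, leaving out mitochondrial and ribosomal genes or leaving out Malat1 kept 2. The share of higher genes at an unadjusted p below 0.05, 52.9%, was 24.0% with limma-voom, 40.5% with sample weights, 40.4% with all 9 libraries and 39.0% with the block. The difference in genes read was -1862 after thinning to equal depth, -2895 at 1 count, and -2600 to -1781 without 1 library.

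Of the 106 named genes that were tested, 2 turned sign. Rbpms (0.22) ran from -0.46 to 0.83 without 1 library, negative without Olig2 library 1, Olig3 library 1 or Olig3 library 2, and had -1.16 and -0.66 with limma-voom without and with weights and -0.52 with the block. Slc17a6 (-0.36) ran from -1.92 to 0.57 without 1 library, with 0.57 without Olig2 library 2, 0.24 without Olig3 library 3, and had 0.21 without the libraries rich in Malat1, 0.42 in those alone and 0.89 without the 2 Olig3 libraries with the fewest genes. The causes were not tested. Depth limits genes with few reads, where 3 counts correspond to 0.443 to 0.560 CPM before TMM scaling.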
